A study of Mus musculus with 13 samples.

Results

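The genes described here are 53 interferon response genes of the mouse, genes whose transcription is switched on when a cell meets an interferon. Members were taken as every feature of the expression array that the platform annotation, older symbols included, assigned to these genes. Of the 53 genes, 52 were found on the array, through 92 of its 62976 features, out of 20738 genes in all. Ifi205 had no feature named here and was not analysed. Of the 52 genes, 31 had 1 feature and 21 had more, up to 10 for Tap1 and Igtp. The feature with the highest mean over all arrays stood for a gene. Testing was limited to genes over the median of the array in 2 or more arrays, which 51 members were. The exception was Oas1g, which lay under the median on all 13 arrays.

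The arrays held total RNA, labelled with Cy3, of 7 groups of mouse cells and tissue. Mouse embryonic fibroblasts (MEF, 2 arrays) carried an empty vector and tail tip fibroblasts (TTF, 2 arrays) carried the red fluorescent protein tdTomato. Both were wild type and grown for 3 passages in 10% serum. Induced embryonic Sertoli cells (ieSC) expressed 5 factors that act in gonad development as transgenes (Nr5a1, Wt1, Dmrt1, Gata4 and Sox9). Those derived from tail tip fibroblasts are TTF-ieSC, with 2 arrays, and those derived from embryonic fibroblasts are MEF-ieSC, with 1. They were grown for 6 months in 2% serum with doxycycline, which the labels give as 2 mg/ml. The native samples carried no transgene. They were male gonad at 14.5 days post coitum (dpc), not cultured, immature Sertoli cells of the 19 dpc testis, cultured for 3 days, and mature Sertoli cells of the testis at 8 weeks, cultured for 7 days, the Sertoli cells in 10% serum, with 2 arrays each. By the design text each group was run in duplicate, and a second array of MEF-ieSC is not used here. Neither the mouse strain nor the origin of replicate arrays, from separate animals or cultures or not, is given in the sources used here, so a p-value reflects array-to-array spread that may be technical. The factors, the serum, the doxycycline and the time in culture all differ between fibroblasts and induced cells and cannot be told apart. In bulk RNA, fewer cells of a type and less RNA per cell cannot be told apart either.

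Interferons are secreted proteins that warn cells of infection. Type I interferons bind the receptor of Ifnar1 and Ifnar2, whose kinases Jak1 and Tyk2 phosphorylate Stat2, which acts with Irf9 at the interferon-stimulated response element (ISRE) in the promoters of their targets. Interferon gamma acts through Ifngr1 and Ifngr2 and on the gamma-activated site (GAS), and many of the same targets answer to both. Fibroblasts hold a low, constant output of these genes that depends on small amounts of type I interferon, and Sertoli cells of the testis can mount such a response to virus.

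Values are the authors' deposited log2 signals, brought by them to the same distribution on every array. Every array had a median of 7.49 and a 75th percentile of 10.47, and the file gives no detection call, so a value near or under the median is dim, and the size of a difference from it rests on an unknown background. The root mean square log2 difference between replicates was 0.123 to 0.321 over the tested members and 0.167 to 0.310 over all 16658 tested genes. Each comparison is a log2 difference with its standard error from 1 limma fit over all 13 arrays, called at an adjusted p under 0.05, where p-values were adjusted over all 16658 tested genes. The single MEF-ieSC array has no spread of its own and takes that of the other groups. Of 8 fibroblast markers, 7 fell in each induction, where 35.2% of all tested genes fell from TTF and 33.6% from MEF. Of 10 Sertoli cell markers, 8 rose from TTF and 7 from MEF, where 39.5% and 34.3% of all tested genes rose. These 10 include Sox9, Wt1 and Gata4, which the induced cells also carried as transgenes. Whether their features read the transgene or the gene of the cell was not tested. The mean log2 signal of 6 germ cell markers was 13.75 and 13.71 on the gonad arrays, 10.98 and 10.89 in immature and 9.84 and 10.14 in mature Sertoli cells, against 5.78 to 6.86 on the fibroblast and induced cell arrays, and the 4 Leydig cell markers read 15.74 and 15.76 in the gonad, so the gonad and the Sertoli cell samples also hold RNA of other testis cells.

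As a group, the interferon response genes were highest in TTF and lowest in both kinds of induced cells and in the gonad. Their mean log2 signal over 52 genes was 12.04 on both TTF arrays, 11.28 on both mature Sertoli arrays, 11.11 and 11.07 in immature Sertoli cells and 10.48 and 10.52 in MEF. It was 9.42 and 9.40 in the gonad, 9.19 in MEF-ieSC and 9.13 and 9.11 in TTF-ieSC. No group overlapped another. The TTF-ieSC arrays lay just under the MEF-ieSC array, whereas TTF lay far above MEF. By group means, 33 of the 52 genes were highest in TTF, 8 in mature and 6 in immature Sertoli cells, 3 in the gonad, and 1 each in MEF-ieSC (Oasl1) and TTF-ieSC (Ifit2). The gonad was lowest for 24 genes, TTF-ieSC for 12, MEF-ieSC for 11, MEF for 3 and immature Sertoli cells for 2. Highest and lowest groups were not counted over all genes of the array, so these counts only describe the members.

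**Figure D1:**
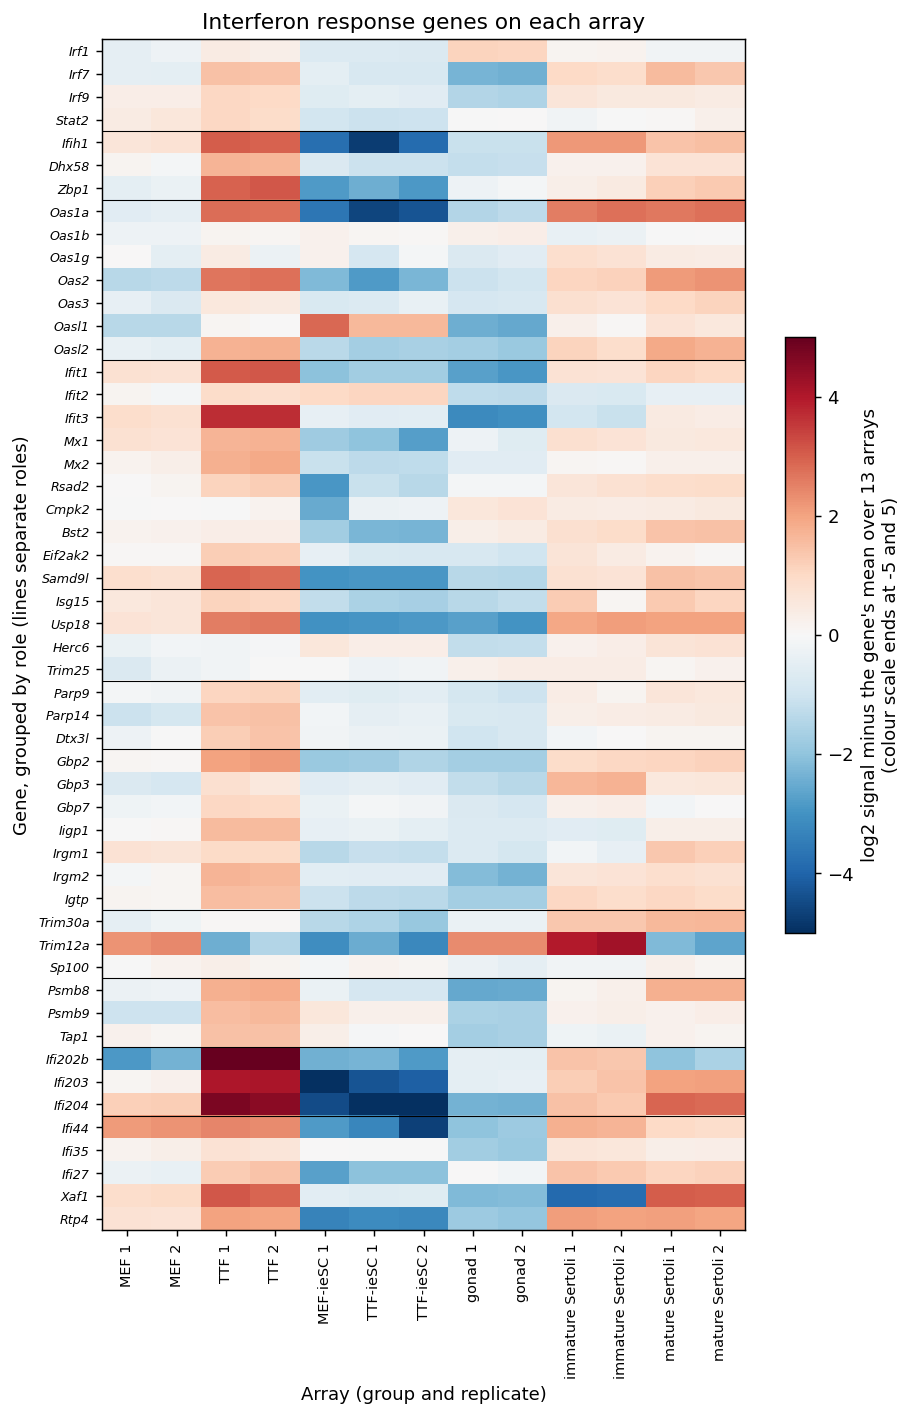
Each row is 1 of 52 interferon response genes and each column 1 of the 13 arrays. Colour gives the log2 signal minus that gene's own mean over the 13 arrays, with black lines between functional roles and colours ending at -5 and 5. The 2 TTF columns are red for most genes, the 3 induced cell columns are blue for most genes, and Oasl1 is red in the induced cells.

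**Figure D2:**
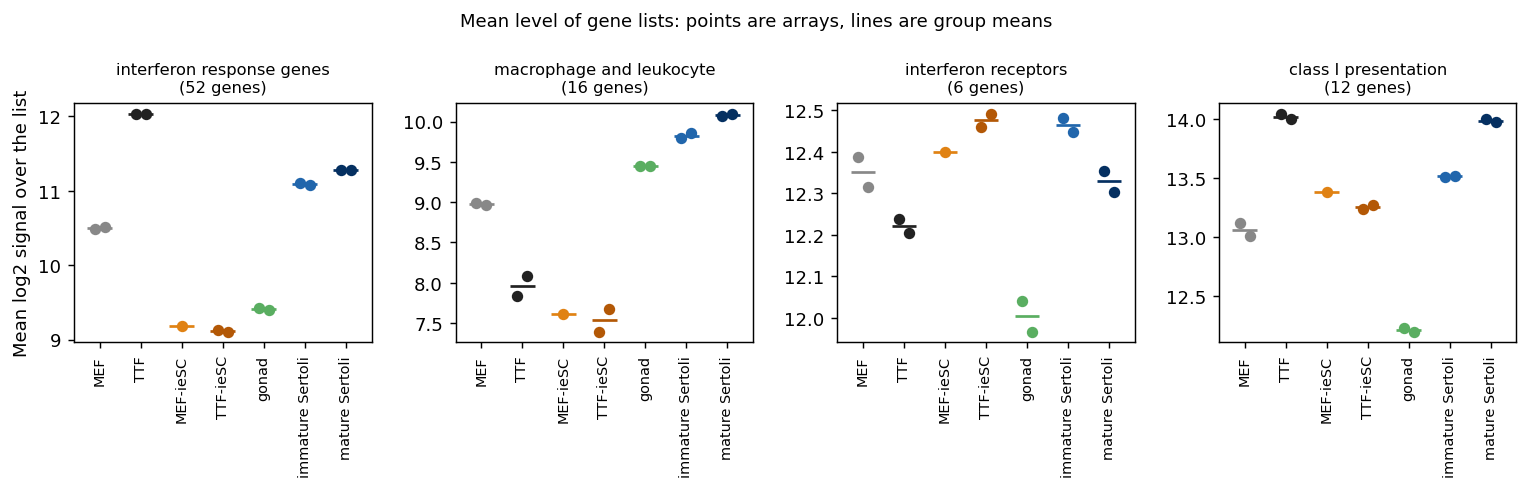
Points are arrays and lines are group means of the mean log2 signal over 4 gene lists, with a vertical scale of its own in each panel that does not start at 0. The interferon response genes read 12.04 in TTF and 9.11 to 9.19 in the induced cells, while the 6 interferon receptor genes span less than 1 log2 unit over all arrays.

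Promoter sequence of the members was looked at for both elements. The members were chosen as interferon response genes, so their share with these elements describes that choice and not the arrays. RefSeq promoter windows (build GRCm38.p6, from 250 bases before to 50 bases after each annotated start) were given for 40 of the 53 members. The core of the ISRE was searched as GAAA, any 2 bases and GAAA on both strands, which on the other strand is TTTC, any 2 bases and TTTC, and was found in windows of 21 of these 40 members (52.5%) and of 1079 of all 27025 genes (3.99%). By window, 1131 of 32851 (3.44%) held it. The core of the GAS, TTCNNNGAA, which is its own reverse complement, was found for 11 of the 40 members (27.5%) and for 9.55% of all genes (8.30% of windows). The motifs can overlap, and a match describes letters, not a bound site. The stretches below are shown because they hold the ISRE core of genes on which the results turn, 5′ to 3′ on the strand of the gene and upstream of its start, with the matched letters in capitals.

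Isg15, chr4:156200850-156200921, minus strand: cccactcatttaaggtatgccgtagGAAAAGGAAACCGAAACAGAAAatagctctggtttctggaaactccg
Ifit1, chr19:34640760-34640838, plus strand: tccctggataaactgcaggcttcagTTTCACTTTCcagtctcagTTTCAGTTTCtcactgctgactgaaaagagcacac
Ifit3, chr19:34583348-34583441, plus strand: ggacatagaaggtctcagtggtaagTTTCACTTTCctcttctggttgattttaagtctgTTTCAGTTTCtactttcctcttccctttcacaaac
Oas1a, chr5:120907526-120907570, minus strand: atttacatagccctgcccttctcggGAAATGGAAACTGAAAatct
Oas1g, chr5:120887614-120887656, minus strand: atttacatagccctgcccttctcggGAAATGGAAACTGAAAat
Stat2, chr10:128270251-128270310, plus strand: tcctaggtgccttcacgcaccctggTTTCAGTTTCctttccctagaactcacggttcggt
Ifi203, chr1:173942493-173942552, minus strand: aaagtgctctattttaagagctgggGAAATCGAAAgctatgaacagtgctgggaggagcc
Gbp2, chr3:142620579-142620638, plus strand: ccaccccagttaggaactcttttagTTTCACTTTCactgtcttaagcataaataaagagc
Igtp, chr11:58199497-58199555, plus strand: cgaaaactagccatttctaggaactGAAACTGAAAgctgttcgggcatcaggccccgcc
Irgm2, chr11:58214888-58214947, plus strand: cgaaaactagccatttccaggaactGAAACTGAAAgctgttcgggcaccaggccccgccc
Bst2, chr8:71537562-71537627, minus strand: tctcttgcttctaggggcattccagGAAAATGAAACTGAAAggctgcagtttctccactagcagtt
Rsad2, chr12:26456538-26456597, minus strand: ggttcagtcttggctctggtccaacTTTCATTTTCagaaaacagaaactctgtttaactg

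Some of these elements run as repeats: Isg15 has 3 overlapping or adjoining matches, and Ifit1, Ifit3, Oas1a and Bst2 have 2 each. Some close relatives carry nearly the same letters. Oas1a and Oas1g were the same over all 43 bases compared, and Igtp and Irgm2 over 57 of 59. Ifi203 and Ifi205, whose stretch is not shown, were less alike, with 40 of 60 bases the same. The signal of Oas1g was under the array median on all 13 arrays (4.73 to 6.41), too dim to be set beside the changes of Oas1a. Of the tested members with a promoter window, 19 had an ISRE core and 19 had none. In TTF-ieSC against TTF, all 19 with the core were lower, at -8.26 to -0.89 (median log2 difference -2.41), with Trim12a, whose call is not stable, as the smallest. Of the 19 without it, 14 were lower, 3 were higher and 2 were not called, at -9.92 to 1.55 (median -1.50). These counts stand beside 45 of the 51 tested members lower, and 35.2% lower and 39.5% higher of all tested genes. The genes without a match in their window included Oasl1, Ifit2 and Herc6, the 3 that rose. They also included Ifi202b, Ifi44 and Samd9l, with some of the largest falls (-9.92, -6.35 and -5.76). Whether the core goes with the fall was not tested, and the calls of all other genes with the core were not counted. The other 13 members have no window in the table.

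In TTF-ieSC against TTF, the genes fell nearly as a block, in every functional role. The limma fit called 45 of the 51 tested members lower, 3 higher (Oasl1, Ifit2 and Herc6) and 3 not (Oas1b, Trim25 and Sp100). Of all tested genes 74.7% were called, 35.2% lower and 39.5% higher. The median log2 difference was -2.23 over the members and 0.06 over all tested genes. By size, 42 members fell by 1 or more on the log2 scale (16.9% of all tested genes did), 30 by 2 or more (8.72%) and 11 by 5 or more (1.82%).

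In MEF-ieSC against MEF, the fall was smaller and less general. Of the 51 members 34 were called lower, 7 higher and 10 not, where 67.9% of all tested genes were called, 33.6% lower and 34.3% higher. The median log2 difference was -0.94 over the members and 0.01 over all tested genes. Here 25 members fell by 1 or more (14.9% of all tested genes), 16 by 2 or more (7.80%) and 4 by 5 or more (1.63%). The genes that rose were Oas1b, Oasl1, Ifit2, Herc6, Trim25, Parp14 and Psmb9. No array is shared by the inductions. Of the members, 34 fell in both, where 23.9% of all tested genes did, and 3 rose in both, where 25.9% did. Parp14 and Psmb9 fell from TTF and rose from MEF, as 3.28% of all tested genes did. A further 9 fell from TTF and were not called from MEF, as 8.03% of all tested genes were: Irf7, Oas3, Dtx3l, Gbp3, Gbp7, Psmb8, Tap1, Ifi202b and Ifi35.

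**Figure D3:**
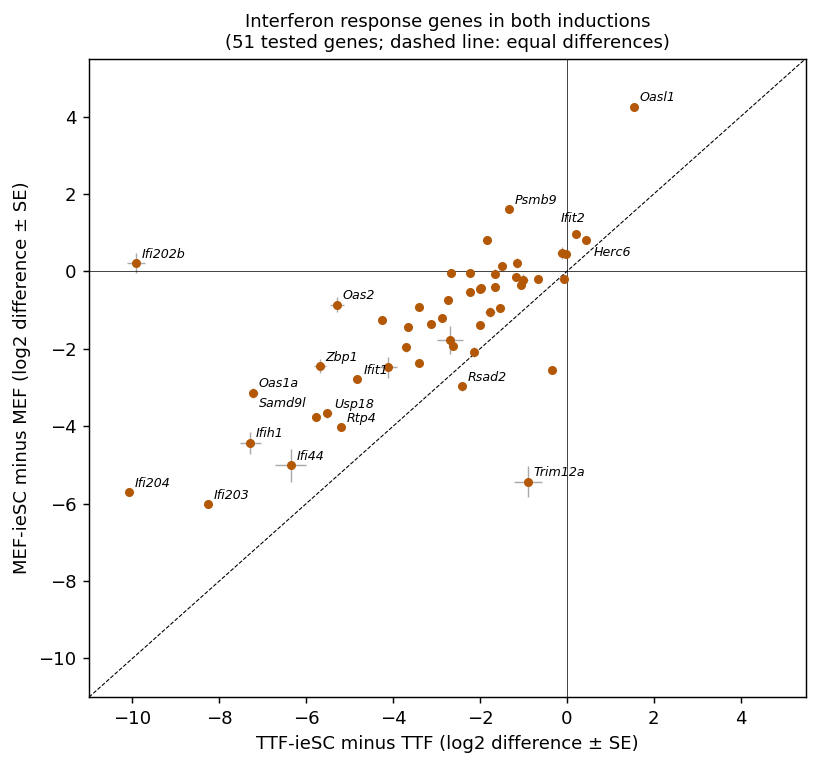
Each point is 1 of the 51 tested members, with the log2 difference of TTF-ieSC minus TTF across and of MEF-ieSC minus MEF upward, and bars of 1 standard error. Most points lie to the left of 0 and above the dashed line of equal differences, Oasl1 lies far up on the right at 1.55 and 4.26, and Ifi202b lies at -9.92 and 0.22.

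The starting fibroblasts differed in these genes in the other direction. MEF carried an empty vector and TTF carried tdTomato, so origin and construct cannot be told apart in this comparison. In TTF against MEF, 44 members were higher, 1 (Trim12a) was lower and 6 were not called (Cmpk2, Bst2, Isg15, Herc6, Sp100 and Ifi44), where 66.6% of all tested genes were called, 31.1% higher and 35.5% lower. The median log2 difference was 1.43 over the members and -0.03 over all tested genes. By size, 35 members were higher by 1 or more (9.62% of all tested genes) and 15 by 2 or more (2.83%). The adjusted p of Isg15 was 0.163 in this comparison and 0.00137 without either of the immature Sertoli arrays. Those arrays read 15.47 and 14.30 for the gene and widened its standard error to 0.30. Irgm1 (0.25, adjusted p = 0.0480), Trim25 (0.40, 0.0182) and Trim30a (0.38, 0.0169) lost their calls without single fibroblast arrays, at adjusted p up to 0.173, 0.0953 and 0.106. For Irgm1 that also held without either of the TTF-ieSC or mature Sertoli arrays (adjusted p from 0.0512 to 0.0640).

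The difference between the inductions was tested by itself, as the change in TTF-ieSC against TTF minus that in MEF-ieSC against MEF. It was lower, that is, more negative from TTF, for 44 members, higher for 3 (Rsad2, Cmpk2 and Trim12a) and not called for 4 (Isg15, Irgm1, Sp100 and Ifi44). Of all tested genes 54.1% were called, 25.2% lower and 28.9% higher. The median was -1.60 over the members and 0.05 over all tested genes. This value is by arithmetic the difference between the induced cells minus the difference between the fibroblasts, and shares arrays with both. The limit given for the fibroblasts, that origin and construct cannot be told apart, therefore holds for it too. Between the induced cells, TTF-ieSC against MEF-ieSC, 39 members were not called, 8 were lower and 4 higher, where 14.3% of all tested genes were called, 6.76% lower and 7.53% higher, with a median of -0.12 (0.00 over all). The 4 were Cmpk2 (2.26 ± 0.08), Ifi203 (1.65 ± 0.11), Rsad2 (1.64 ± 0.12) and Ifi27 (0.66 ± 0.09). The 8 were Oasl1 (-1.26 ± 0.10), Ifi204 (-0.997 ± 0.10), Oas1a, Bst2, Psmb8, Dhx58, Psmb9 and Tap1 (-0.81 to -0.33). The direction of Ifi204 turned on its other feature (0.59, adjusted p = 0.00591 in limma), and its signals in the induced cells were under the array median. With the 3 induced arrays fitted alone, these calls did not hold. Few genes of any kind were called in that fit, whose spread comes from the 2 TTF-ieSC arrays only. It could therefore not decide on the members. Dhx58, Psmb9 and Tap1 lost their calls without either TTF-ieSC array (adjusted p from 0.0552 to 0.0925), and Dhx58 also without either gonad array (0.0509 and 0.0510).

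The factors that carry the interferon signal to the nucleus fell with the rest. Irf7, which amplifies type I interferon production, read 9.40 and 9.37 in MEF, 11.30 and 11.27 in TTF, 9.35 in MEF-ieSC, 9.04 and 9.06 in TTF-ieSC, 7.51 and 7.44 in the gonad, 10.84 and 10.74 in immature and 11.42 and 11.17 in mature Sertoli cells. MEF and MEF-ieSC lay together, TTF-ieSC just under them, and the gonad at the array median. Irf7 fell by 2.23 ± 0.08 from TTF and was not called from MEF (-0.03 ± 0.10). Irf9 and Stat2, which act at the ISRE, fell from both. The log2 differences, from TTF and then from MEF as in all pairs below, were -1.54 ± 0.06 and -0.94 ± 0.07 for Irf9 and -2.01 ± 0.09 and -1.39 ± 0.11 for Stat2. Stat2 read 11.02 to 11.16 on the 3 induced arrays and 11.91 or more on all others. Irf1, a factor induced early by interferon gamma, fell (-1.04 ± 0.07 and -0.36 ± 0.08), and was highest in the gonad, at 14.39 and 14.34. Its other feature was dim (5.29 to 7.21), and the mean of both gave 0.18 from TTF.

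All 3 sensors of foreign nucleic acid fell in both inductions, to below the array median for 2 of them. Ifih1 (MDA5), which senses long double-stranded RNA, read 10.24 and 10.36 in MEF, 12.64 and 12.58 in TTF, 5.87 in MEF-ieSC, 4.87 and 5.78 in TTF-ieSC, 8.50 and 8.53 in the gonad, 11.81 and 11.78 in immature and 11.03 and 11.13 in mature Sertoli cells. The induced cells were lowest with no overlap, and all under the median. Its log2 difference was -7.28 ± 0.23 from TTF and -4.43 ± 0.28 from MEF, and its dimmer feature gave -3.82 and -1.58. Zbp1, a sensor of Z-form nucleic acid that can trigger necroptosis, read 12.30 and 12.49 in TTF, 8.88 and 9.04 in MEF and 6.51 to 6.92 in the induced cells, and fell (-5.68 ± 0.14 and -2.44 ± 0.17). Dhx58 (LGP2), which modulates the RNA sensors, fell (-2.74 ± 0.07 and -0.75 ± 0.08), to 7.80 to 8.15 in the induced cells.

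The oligoadenylate synthetase family, named for enzymes that make the messenger that activates RNase L, split. Oas1a read 10.50 and 10.61 in MEF, 13.84 and 13.81 in TTF, 7.42 in MEF-ieSC, 6.48 and 6.74 in TTF-ieSC, 9.59 and 9.77 in the gonad, 13.62 and 13.81 in immature and 13.70 and 13.83 in mature Sertoli cells. TTF and both Sertoli cell groups overlapped at the top and the induced cells were at the bottom, under the median. Oas1a fell from TTF (-7.22 ± 0.11) and from MEF (-3.13 ± 0.13). Oas2 fell (-5.29 ± 0.16 and -0.85 ± 0.19), Oasl2 (-3.41 ± 0.09 and -0.91 ± 0.11), and the dim Oas3 from TTF (-1.01 ± 0.12), with no call from MEF (-0.21 ± 0.15). Oas1b read 14.14 to 14.85 on its brighter feature, was not called from TTF (-0.03 ± 0.05) and rose from MEF (0.46 ± 0.06), and its features disagreed, as given below.

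Oasl1 ran against the family. It encodes an OAS-like protein that restrains the translation of Irf7 mRNA. Its signal was 9.64 and 9.62 in MEF, 11.11 and 11.05 in TTF, 13.89 in MEF-ieSC, 12.62 and 12.65 in TTF-ieSC, 8.59 and 8.47 in the gonad, 11.26 and 11.06 in immature and 11.68 and 11.56 in mature Sertoli cells. All 3 induced arrays lay above the other 10. The rise was 1.55 ± 0.08 from TTF and 4.26 ± 0.10 from MEF, the largest rise of any member in either induction, and the difference between the inductions was -2.71 ± 0.13. It has 1 feature on the array.

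Among the antiviral effectors, Ifit2 was the other exception. Ifit3, of a family that binds viral RNA and blocks its translation, read 10.92 and 10.82 in MEF, 13.75 and 13.73 in TTF, 9.63 in MEF-ieSC, 9.48 and 9.51 in TTF-ieSC, 6.86 and 7.00 in the gonad, 9.12 and 8.92 in immature and 10.49 and 10.40 in mature Sertoli cells. It fell from TTF (-4.25 ± 0.08) and from MEF (-1.24 ± 0.10), and Ifit1 fell (-4.83 ± 0.07 and -2.79 ± 0.08). Ifit2, which lies in the same gene cluster, read 10.30 and 10.08 in MEF, 11.10 and 11.001 in TTF, 11.15 in MEF-ieSC, 11.27 and 11.23 in TTF-ieSC, 8.89 and 8.85 in the gonad, 9.43 and 9.42 in immature and 9.78 and 9.75 in mature Sertoli cells. It was thus highest in the induced cells, by little over TTF. Ifit2 rose by 0.96 ± 0.09 from MEF. Its rise from TTF was only 0.20 ± 0.08 (adjusted p = 0.0386), and lost its call without TTF replicate 2 (0.15, adjusted p = 0.177), TTF-ieSC replicate 1 (0.134) or replicate 2 (0.0866), either gonad array (0.0540), either mature Sertoli array (0.0528), or with no filter on dim genes (0.0541).

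The other effectors fell in both inductions. Samd9l, an inhibitor of viral translation, had the largest fall of these from either (-5.76 ± 0.06 and -3.77 ± 0.08). It read 14.22 and 14.10 in TTF, 12.15 and 12.06 in MEF and 8.34 to 8.40 in the induced cells. Mx1 and Mx2, dynamin-like GTPases that trap viral particles, fell from TTF (-4.11 ± 0.21 and -3.12 ± 0.06) and from MEF (-2.48 ± 0.26 and -1.36 ± 0.08). Bst2 (tetherin), which holds budding virus at the cell surface, fell from 14.65 and 14.64 in TTF and 14.49 and 14.53 in MEF to 12.04, 11.99 and 12.59 in the induced cells (-2.63 ± 0.06 and -1.93 ± 0.08). Eif2ak2 (PKR), a kinase that stops translation on double-stranded RNA, fell (-2.002 ± 0.09 and -0.45 ± 0.12). Rsad2 (viperin) and Cmpk2, neighbouring genes whose products act on nucleotides, were lower in MEF-ieSC than in TTF-ieSC. Rsad2 read 5.44 in MEF-ieSC and 7.21 and 6.95 in TTF-ieSC, all under the median, against 8.34 and 8.48 in MEF and 9.44 and 9.55 in TTF, and fell from MEF (-2.97 ± 0.12) and from TTF (-2.41 ± 0.10). Cmpk2 read 5.98 in MEF-ieSC and 8.24 on both TTF-ieSC arrays, against 8.49 to 8.67 on the fibroblast arrays, and fell from MEF (-2.54 ± 0.08) and from TTF (-0.34 ± 0.07). Those MEF-ieSC values rest on 1 array.

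**Figure D4:**
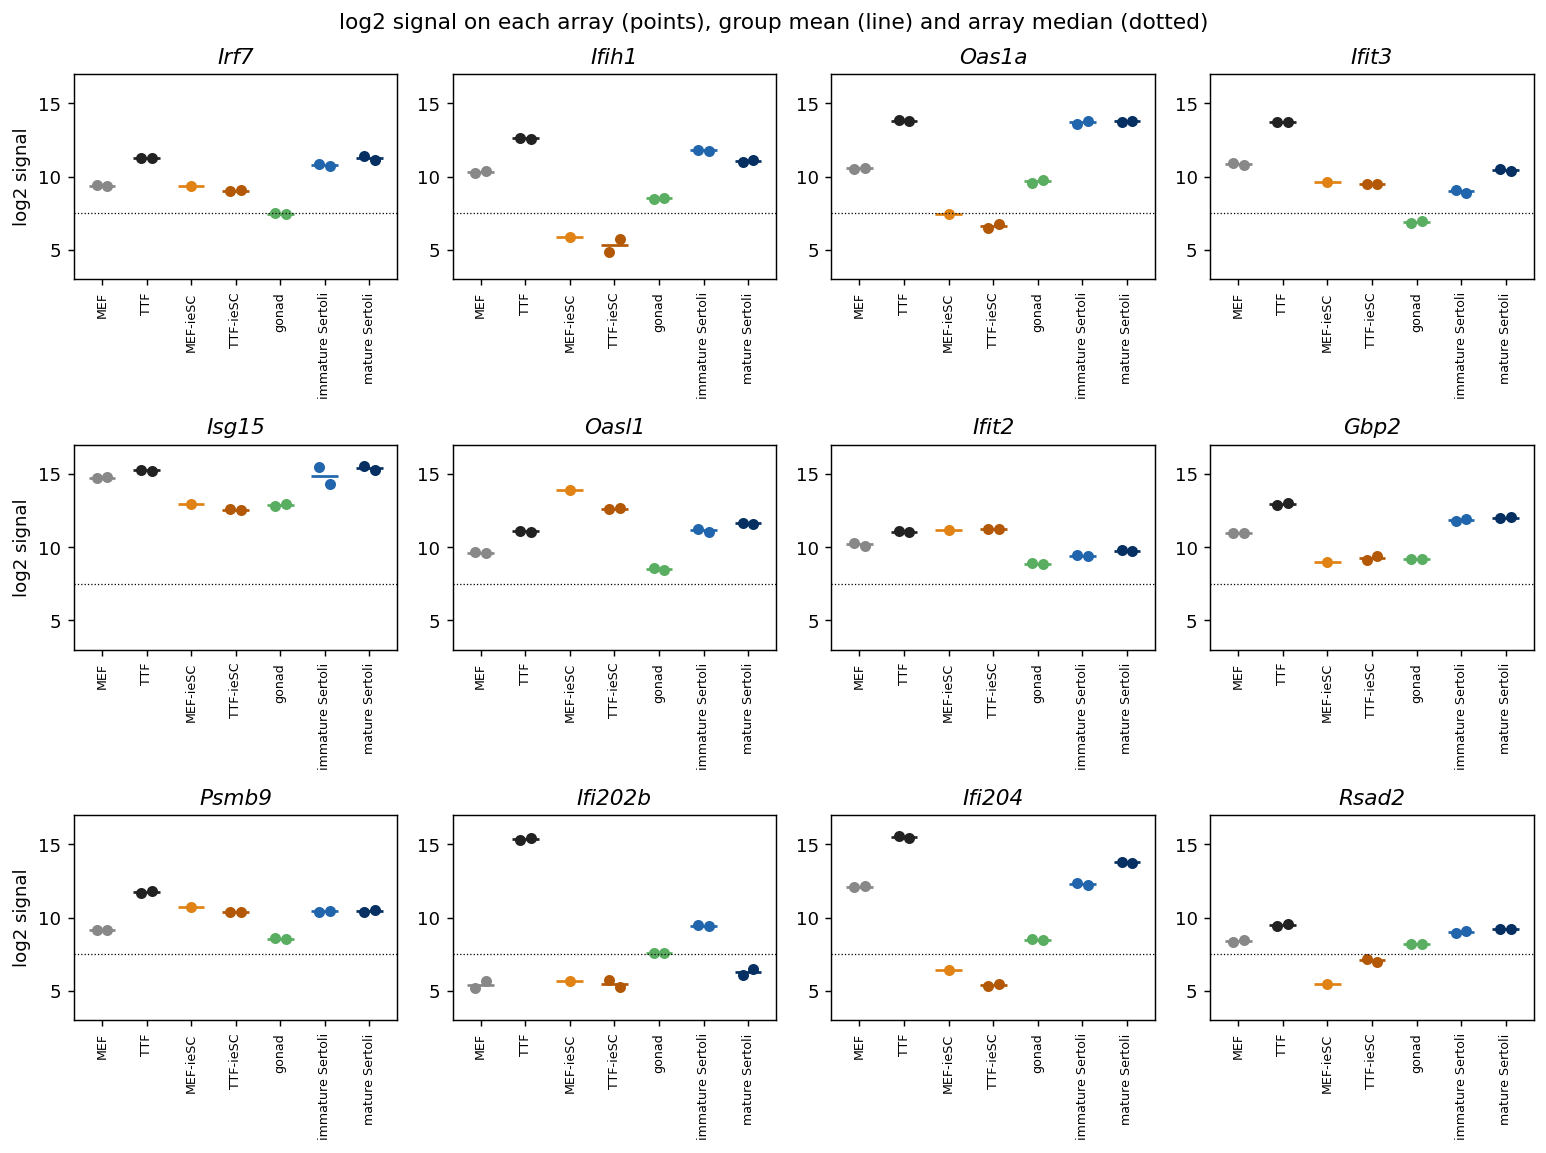
Points give the log2 signal of 12 members on each array and lines the group means, on 1 vertical scale from 3 to 17 with the array median dotted. Ifih1, Oas1a and Ifi204 drop under the median in the 3 induced arrays, Oasl1 is highest there, and Ifi202b is bright in TTF alone.

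In the ISG15 system, the modifier and its protease fell and a ligase rose. Isg15, a ubiquitin-like protein attached to other proteins, read 14.70 and 14.80 in MEF, 15.29 and 15.23 in TTF, 12.97 in MEF-ieSC, 12.59 and 12.55 in TTF-ieSC, 12.81 and 12.94 in the gonad, 15.47 and 14.30 in immature and 15.51 and 15.28 in mature Sertoli cells. The induced cells and the gonad lay together at the bottom and all others at 14.30 or more. Isg15 fell from TTF (-2.69 ± 0.30) and from MEF (-1.77 ± 0.37), so it was still bright after the fall. Usp18, which removes Isg15 and also damps the type I receptor, fell further (-5.51 ± 0.10 and -3.67 ± 0.12), to 6.99 to 7.14. Herc6, the main Isg15 ligase of the mouse, rose by 0.45 ± 0.08 and 0.82 ± 0.10. It read 9.44 to 9.70 in the induced cells and 8.78 to 9.06 in the fibroblasts. The features of Trim25, a ubiquitin ligase that activates the RNA sensor RIG-I, disagreed. On the brighter one Trim25 was not called from TTF (-0.10 ± 0.12) and rose from MEF (0.47 ± 0.15), a call lost without MEF replicate 1 (0.27, adjusted p = 0.0563).

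The Parp9 and Dtx3l complex, which adds ADP-ribose and ubiquitin, fell from TTF (-1.65 ± 0.09 for Parp9 and -1.65 ± 0.10 for Dtx3l). From MEF, Parp9 fell by 0.39 ± 0.10 and Dtx3l was not called (-0.06 ± 0.12). Parp14, a further ADP-ribosyltransferase, read 9.86 and 10.05 in MEF, 12.35 and 12.41 in TTF, 10.78 in MEF-ieSC and 10.50 and 10.58 in TTF-ieSC. The induced cells thus lay between the fibroblasts, and Parp14 fell by 1.85 ± 0.07 from TTF and rose by 0.82 ± 0.09 from MEF.

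All 7 GTPases of the guanylate-binding (Gbp) and immunity-related (Irg) families, which take part in defence against intracellular parasites, fell from TTF, and 5 fell from MEF. Gbp2 read 10.97 and 10.95 in MEF, 12.91 and 12.998 in TTF, 9.005 in MEF-ieSC, 9.10 and 9.39 in TTF-ieSC, 9.19 and 9.20 in the gonad, 11.79 and 11.92 in immature and 11.97 and 12.03 in mature Sertoli cells. The gonad lay within the range of the induced cells. Gbp2 fell (-3.71 ± 0.09 and -1.95 ± 0.12). Gbp3 (-1.15 ± 0.10) and Gbp7 (-1.16 ± 0.07) fell from TTF and were not called from MEF (0.22 ± 0.12 and -0.13 ± 0.09). Igtp fell (-2.87 ± 0.06 and -1.19 ± 0.08), and its 10 features gave -2.94 to -2.64 and -1.33 to -1.16. Irgm2 fell (-2.22 ± 0.08 and -0.53 ± 0.10) and Iigp1 (-1.99 ± 0.06 and -0.44 ± 0.08). Irgm1 fell from both (-2.14 ± 0.10 and -2.08 ± 0.12), with a difference between the inductions of -0.05 ± 0.15 (adjusted p = 0.792).

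The antigen processing genes differed by origin. Psmb8 and Psmb9, subunits of the immunoproteasome, and Tap1, a chain of the peptide transporter into the endoplasmic reticulum, lie side by side in the major histocompatibility complex. Psmb9 read 9.14 and 9.13 in MEF, 11.71 and 11.79 in TTF, 10.74 in MEF-ieSC, 10.41 on both TTF-ieSC arrays, 8.59 and 8.53 in the gonad, 10.40 and 10.48 in immature and 10.39 and 10.51 in mature Sertoli cells. It fell by 1.34 ± 0.06 from TTF and rose by 1.60 ± 0.07 from MEF, and TTF-ieSC against immature Sertoli cells was not called (-0.03 ± 0.06). Psmb8 and Tap1 fell from TTF (-2.66 ± 0.06 and -1.50 ± 0.06) and were not called from MEF (-0.05 ± 0.07 and 0.15 ± 0.08). The 10 features of Tap1 gave -1.60 to -1.35 from TTF and 0.08 to 0.36 from MEF.

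The PYHIN family, nuclear and cytoplasmic sensors of DNA, held the largest falls. Ifi204 read 12.10 and 12.14 in MEF, 15.59 and 15.42 in TTF, 6.42 in MEF-ieSC, 5.35 and 5.496 in TTF-ieSC, 8.52 and 8.50 in the gonad, 12.36 and 12.22 in immature and 13.80 and 13.74 in mature Sertoli cells. It went from bright in TTF to under the array median in TTF-ieSC (-10.08 ± 0.08), and fell by 5.70 ± 0.10 from MEF. Ifi203 fell (-8.26 ± 0.09 and -6.01 ± 0.11), and its 4 features gave -8.26 to -1.70 and -6.01 to -1.15. Ifi202b read 5.18 and 5.69 in MEF, 15.33 and 15.46 in TTF, 5.66 in MEF-ieSC, 5.73 and 5.24 in TTF-ieSC, 7.61 and 7.60 in the gonad, 9.48 and 9.41 in immature and 6.06 and 6.47 in mature Sertoli cells. It was bright in TTF alone, and dim in MEF and all induced cells. The difference was -9.92 ± 0.21 in TTF-ieSC against TTF and 9.96 ± 0.21 in TTF against MEF, and its second feature gave -9.93 in the former. MEF-ieSC did not differ from MEF by the test on the brighter feature (0.22 ± 0.26). The second feature of Ifi202b gave 1.68 there and the mean of both gave 0.95. Both groups were under the array median on either feature, so these values say little. Whether a feature of the PYHIN or of the Oas genes also reads a close relative could not be checked, since no probe sequences were used here.

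The remaining induced genes fell from TTF in all 5 cases. Rtp4, a chaperone of receptors, fell from TTF (-5.20 ± 0.06) and from MEF (-4.03 ± 0.08). It read 13.73 and 13.66 in TTF, 12.41 and 12.38 in MEF and 8.37 to 8.54 in the induced cells. Ifi44 fell (-6.35 ± 0.35 and -5.01 ± 0.43), with TTF-ieSC arrays of 6.27 and 4.87. Ifi27 read 17.17 and 17.32 in TTF, fell (-3.41 ± 0.07 and -2.38 ± 0.09) and was still at 13.17 to 13.84 in the induced cells. Xaf1, an inhibitor of the apoptosis inhibitor XIAP, fell (-3.65 ± 0.08 and -1.44 ± 0.09). Ifi35 fell by 0.66 ± 0.07 from TTF and was not called from MEF (-0.19 ± 0.09), except without MEF replicate 1 (-0.26, adjusted p = 0.0401). Of the TRIM and nuclear body genes, Trim30a, a brake on Toll-like receptor signalling, fell (-1.76 ± 0.11 and -1.05 ± 0.14). Sp100 was close to the median on all arrays (7.29 to 8.02) and was not called in either induction.

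Trim12a, of the Trim5 family, showed another order. Its signal was 10.24 and 10.39 in MEF, 5.55 and 6.52 in TTF, 4.89 in MEF-ieSC, 5.499 and 4.79 in TTF-ieSC, 10.37 on both gonad arrays, 11.98 and 12.21 in immature and 5.79 and 5.37 in mature Sertoli cells. The 3 kinds of embryonic cells and tissue not induced were bright and all others were dim. It fell by 5.43 ± 0.40 from MEF. From TTF, where both groups were dim, it was called lower (-0.89 ± 0.32, adjusted p = 0.0341), a call lost on leaving out TTF replicate 2 (-0.40, adjusted p = 0.237) and also on leaving out TTF-ieSC replicate 2 (-0.54, 0.209). Its other feature gave 1.20 ± 0.21.

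Where a member had several features, they mostly told the same. Tested one by one, 89 of the 92 member features passed the filter. In TTF-ieSC against TTF 80 were lower and 6 higher (35.0% and 39.4% of 25285 features of all genes), and in MEF-ieSC against MEF 58 were lower and 14 higher (33.4% and 34.0%). In TTF against MEF 79 were higher and 4 lower (30.9% and 34.9%). Trim25 was the largest disagreement. Its other feature read 14.88 and 14.97 in MEF, 15.65 and 15.83 in TTF, 7.60 in MEF-ieSC, 7.58 and 7.68 in TTF-ieSC, 15.51 and 15.54 in the gonad, 15.55 and 15.52 in immature and 15.22 on both mature Sertoli arrays, so that only the induced arrays were at the array median. It gave -8.11 ± 0.07 and -7.32 ± 0.09, where the brighter feature read 14.81 to 15.03 in the induced cells. The annotation names these features by different transcripts (NM_009546 and BC034276), and which part of each they read was not tested. For Xaf1 the disagreement was in immature Sertoli cells, with 7.33 and 7.41 on the brighter feature and 13.25 and 12.92 on the other, while both features fell alike in the inductions (-3.65 and -3.45 from TTF). The other feature of Oas1b fell from both (-1.12 ± 0.06 and -0.73 ± 0.08). Those of Cmpk2 gave -0.34 ± 0.07 and 0.85 ± 0.13 from TTF.

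**Figure D5:**
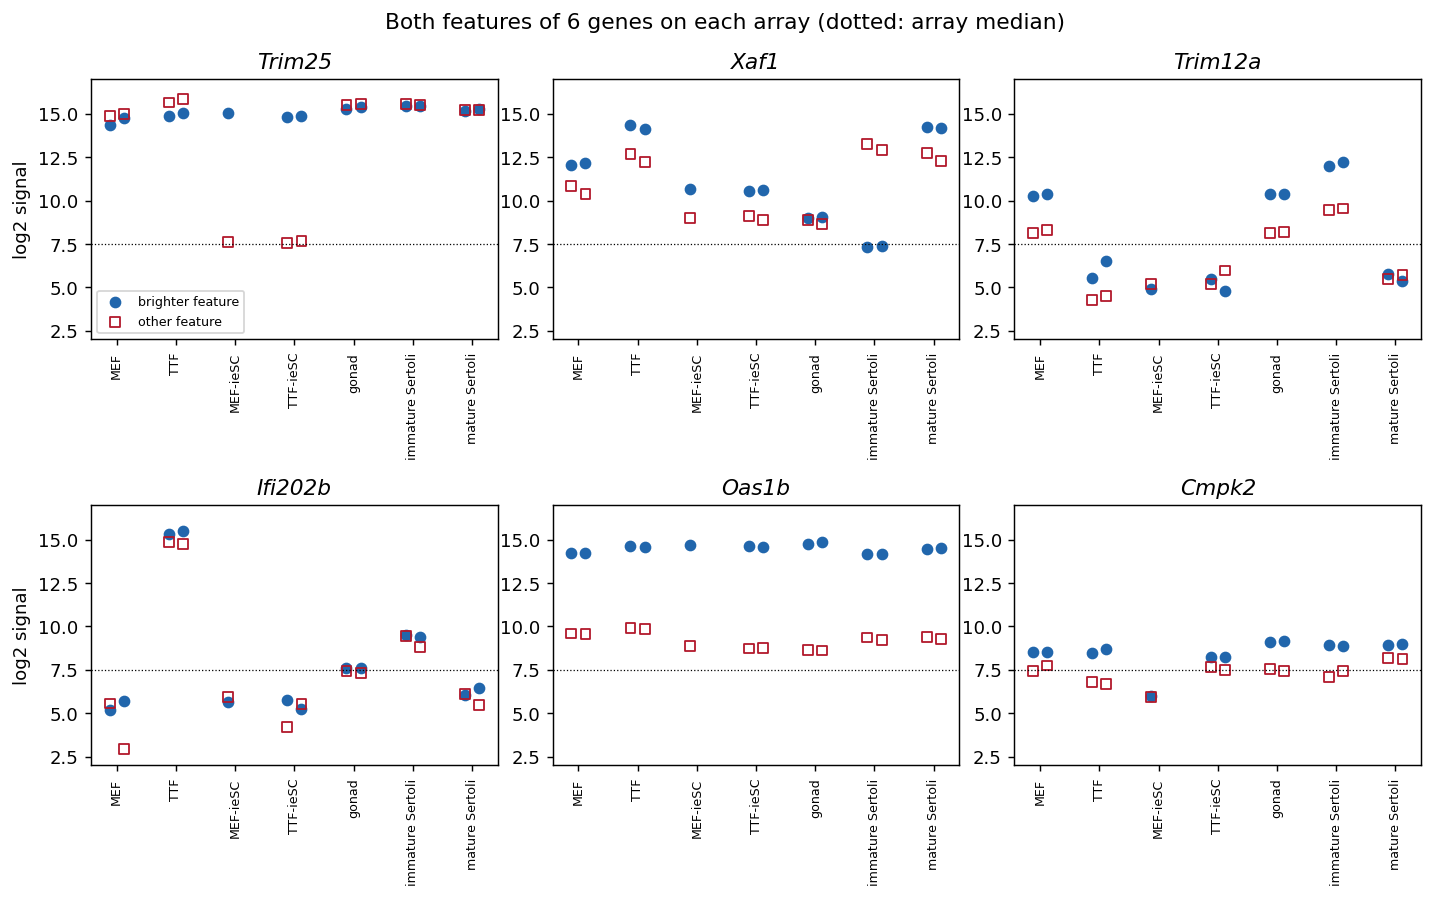
Filled circles are the brighter and open squares the other feature of 6 members with 2 features each, as log2 signal on each array, with the array median dotted. The squares of Trim25 drop to 7.58 to 7.68 in the 3 induced arrays while the circles do not, the circles of Xaf1 drop in immature Sertoli cells while the squares do not, and the features of Ifi202b run together.

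The native samples differed from each other as well. In immature Sertoli cells against gonad, 43 members were higher, 4 (Irf1, Oas1b, Cmpk2 and Xaf1) lower and 4 (Stat2, Trim25, Iigp1 and Sp100) not called, where 70.5% of all tested genes were called, 32.6% higher and 37.9% lower. The median log2 difference was 1.69 over the members and -0.03 over all tested genes, and 36 members were higher by 1 or more (11.6% of all tested genes). Usp18 was higher by 4.86 ± 0.10, Oas1a by 4.04 ± 0.11, Rtp4 by 3.94 ± 0.06, Ifi204 by 3.78 ± 0.08 and Irf7 by 3.31 ± 0.08. The lower call of Xaf1 (-1.67 ± 0.08) was 4.32 ± 0.23 on its other feature, and that of Cmpk2 (-0.23 ± 0.07) was lost without gonad replicate 2 or immature Sertoli replicate 2 (adjusted p = 0.0974 and 0.0711). The gonad was not cultured and its cell mixture differs. Beside its germ and Leydig cell markers, all 4 peritubular markers (smooth muscle genes) were higher in immature Sertoli cells, with a median of 4.02, and their mean was 11.56 and 11.44 in the gonad, 15.58 and 15.50 in immature and 16.14 and 16.10 in mature Sertoli cells. Of 6 endothelial markers 5 were lower in immature Sertoli cells than in the gonad (median -2.59). Age, culture and cell mixture cannot be told apart here.

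Mature and immature Sertoli cells, both cultured, were closer. In mature against immature cells, 24 members were higher, 9 lower and 18 not called, where 68.5% of all tested genes were called, 28.9% higher and 39.6% lower, with a median of 0.24 (-0.09 over all tested genes). The largest difference was that of Xaf1, higher by 6.84 on its brighter feature, but its other feature gave -0.58. Psmb8 was higher by 1.59 ± 0.06, Irgm1 by 1.55 ± 0.10, Ifi204 by 1.48 ± 0.08 and Ifit3 by 1.43 ± 0.08. Trim12a (-6.51 ± 0.32), Ifi202b (-3.18 ± 0.21) and Gbp3 (-1.13 ± 0.10) were lower.

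The induced cells lay far under cultured embryonic Sertoli cells and were split against the gonad. In TTF-ieSC against immature Sertoli cells, 41 members were lower, 8 higher and 2 not called, where 76.8% of all tested genes were called, 39.0% lower and 37.8% higher, with a median of -1.31 (0.01 over all). The lower ones included Oas1a (-7.11 ± 0.11), Ifi204 (-6.86 ± 0.08), Ifih1 (-6.47 ± 0.23), Rtp4 (-5.25 ± 0.06) and Usp18 (-4.92 ± 0.10). Ifit2 was higher by 1.83 ± 0.08 and Oasl1 by 1.47 ± 0.08. Xaf1 was higher too on its brighter feature, with means of 10.58 in TTF-ieSC and 7.37 in immature Sertoli cells. Its other feature gave -4.08. Against the gonad, 23 members were lower, 21 higher and 7 not called, where 79.7% of all tested genes were called, 41.5% lower and 38.2% higher, with a median of 0.05 (-0.03 over all). That median was -0.10 without TTF-ieSC replicate 2 and -0.025 with the mean of features. The members did not move as one. All 3 antigen processing genes (Tap1 1.64, Psmb8 1.71 and Psmb9 1.85), all 3 of the Parp9 list (0.38 to 0.59) and 5 of 7 GTPases were higher in TTF-ieSC than in the gonad. One of the 5, Iigp1 (0.29 ± 0.06), turned to -0.34 with the mean of its features and to -0.97 on its other feature. Among the other roles, Oasl1 was higher by 4.10 ± 0.08, Ifit3 by 2.57 ± 0.08 and Ifit2 by 2.38 ± 0.08. All 3 PYHIN genes (-3.76 to -2.12), Ifih1 (-3.19 ± 0.23), Zbp1 (-2.48 ± 0.14) and Bst2 (-2.67 ± 0.06) were lower.

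Upstream of the members, genes of the pathway were called in both directions. The counts of this and of the lists that follow stand beside 35.2% lower and 39.5% higher of all tested genes from TTF, and 33.6% and 34.3% from MEF, and none was tested as a list. Of 6 receptor genes, 2 fell and 3 rose in TTF-ieSC against TTF, and 2 fell and 2 rose in MEF-ieSC against MEF. Ifnar1 rose by 0.87 ± 0.10 from TTF and was not called from MEF (0.14 ± 0.12), and Ifnar2 was not called in either (0.12 ± 0.09 and 0.07 ± 0.11). Ifngr1 fell (-0.86 ± 0.06 and -0.70 ± 0.07) and Ifngr2 (-0.50 ± 0.06 and -0.96 ± 0.07). Ifnlr1, the chain specific to interferon lambda, rose by 1.45 ± 0.09 and 1.42 ± 0.10, to 9.57 to 9.75, and Il10rb, its partner, by 0.45 ± 0.06 and 0.33 ± 0.08. Jak1, the kinase common to these receptors, fell (-1.65 ± 0.07 and -0.77 ± 0.09), reading 15.59 and 15.63 in TTF, 14.69 and 14.70 in MEF and 13.91 to 14.00 in the induced cells. Jak2, which serves Ifngr2, rose by 0.80 ± 0.07 from TTF and fell by 0.63 ± 0.09 from MEF, Stat3 rose by 0.35 ± 0.09 and 0.46 ± 0.11, and Tyk2 was not called in either (-0.19 ± 0.12 and 0.36 ± 0.15).

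Of 17 interferon genes with a feature, 8 passed the filter, and 2 fell and 1 rose in TTF-ieSC against TTF. Ifnb1, which encodes interferon beta, read 5.503 to 6.98 over the 13 arrays and Ifng read 3.98 to 6.58, both under the array median throughout and not tested. Of the tested ones, Gm13271, an interferon zeta gene, read 10.39 and 10.53 in MEF, 11.68 and 11.81 in TTF, 9.44 in MEF-ieSC and 9.52 and 9.53 in TTF-ieSC, and fell by 2.22 ± 0.07 from TTF. Ifna5 fell by 0.26 ± 0.09 and Ifna12 rose by 0.24 ± 0.06. Of 17 sensors and adaptors outside the members, 9 fell and 4 rose from TTF, and 9 fell and 4 rose from MEF. The largest changes from TTF were those of Tlr4, Irf8 and Ddx58. Tlr4, the receptor of bacterial lipopolysaccharide, fell (-4.00 ± 0.09 and -2.77 ± 0.11), Irf8, a factor of myeloid cells and of interferon induction, fell (-2.20 ± 0.16 and -2.43 ± 0.20), and Ddx58 (RIG-I) fell (-1.63 ± 0.05 and -1.23 ± 0.07). Of 12 negative regulators, 4 fell and 4 rose from TTF, among them Socs1, an inhibitor of Jak kinases that interferon induces (-1.83 ± 0.09), Ptpn6, the phosphatase SHP-1 (4.46 ± 0.07), and Trim24, a corepressor (1.18 ± 0.10).

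Other targets of interferon were mostly lower from TTF. Of 55 further induced genes tested, 39 fell and 6 rose in TTF-ieSC against TTF (median -0.90), and 28 fell and 10 rose in MEF-ieSC against MEF (median -0.29). In TTF against MEF 38 were higher and 9 lower (median 0.40), beside 31.1% and 35.5% of all tested genes. Ifi207, another PYHIN gene, fell from TTF (-8.05 ± 0.24), as did Lgals3bp, a secreted glycoprotein (-7.91 ± 0.09), and Phf11d (-7.11 ± 0.12). Of 12 genes of class I antigen presentation, 8 fell and 2 rose from TTF (median -0.33), and 3 fell and 5 rose from MEF (median 0.03). Nlrc5, the transactivator of the class I genes, fell (-3.97 ± 0.15 and -2.68 ± 0.18), to under the median, and B2m, the light chain (-2.33 ± 0.10 and -1.50 ± 0.12), to 14.68 to 14.96. Tap2, the partner of Tap1, fell by 2.04 ± 0.05 from TTF and rose by 0.26 ± 0.07 from MEF.

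Markers of other cell types are given beside these results, and their part in the results was not tested in any comparison. The mean log2 signal of 16 macrophage and leukocyte markers was 8.99 and 8.96 in MEF, 7.84 and 8.09 in TTF, 7.61 in MEF-ieSC and 7.39 and 7.68 in TTF-ieSC. In the native samples it was 9.44 and 9.45 in the gonad, 9.80 and 9.86 in immature and 10.07 and 10.10 in mature Sertoli cells. Of the 16, 13 were above the array median on both MEF arrays, 8 and 9 on the TTF arrays, 5 on each of the 3 induced arrays and 14 to 16 on the native ones. The list was lower in TTF than in MEF (10 of 16 lower, 2 higher), where the interferon response genes were higher. In TTF-ieSC against TTF 7 of the 16 fell and 4 rose (median -0.14), and in MEF-ieSC against MEF 13 fell and 2 rose (median -0.98). In immature Sertoli cells against gonad 6 were higher and 1 lower (median 0.24), beside 32.6% and 37.9% of all tested genes. In mature against immature cells 8 were higher and 4 lower (median 0.41), beside 28.9% and 39.6%.

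Endothelial and peritubular markers moved with the members in some comparisons and against them in others. Against them, peritubular markers were lower in TTF than in MEF. Endothelial markers were mostly lower in immature Sertoli cells than in the gonad, as given above. The mean of 6 endothelial markers was 8.35 and 8.29 in MEF, 9.66 and 9.63 in TTF, 8.33 in MEF-ieSC and 8.92 and 8.69 in TTF-ieSC. In TTF against MEF 4 of the 6 were higher and 0 lower (median 0.81), in TTF-ieSC against TTF 3 fell and 1 rose (median -1.57), and in MEF-ieSC against MEF 1 fell and 1 rose (median -0.22). The mean of the 4 peritubular markers was 15.85 and 15.76 in MEF, 13.54 and 13.50 in TTF, 10.39 in MEF-ieSC and 9.92 and 9.88 in TTF-ieSC. All 4 fell in both inductions (median -3.64 from TTF and -4.50 from MEF), and all 4 were lower in TTF than in MEF (median -2.24). Of 7 markers of lymphocytes and plasmacytoid dendritic cells, 4 passed the filter. Their median difference was -0.11 from TTF, where 1 fell, and -0.06 from MEF.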

How the data were processed

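RNA of 13 samples in 7 groups was measured on 1-colour Agilent arrays. The authors deposited 1 table of log2 signals, with 1 column per array and no detection flags; sorted values are nearly the same on every array. The only tool named, per the submitters' processing notes, is limma, without its role or version. How features were extracted, background removed or values floored is not given in the sources used here. That the values are log2 was read from their range. The number of arrays limits the precision.

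Of 62976 features, 31465 had 1 gene symbol, 0 had several and 31511 had none in the platform annotation. Symbols were updated through a RefSeq table (GRCm38.p6): the accession matched for 29036, the symbol for 2075 and an older symbol for 349, and 5 stayed as given. The brightest feature stood for a gene. Groups came from the labels. All 13 arrays entered 1 limma fit (limma 3.58.1, R 4.3.3, lmFit and eBayes, two-sided, 6 residual and 2.18 prior degrees of freedom), and p-values were adjusted over 16658 genes by Benjamini-Hochberg. The fit was tested on simulated data. Promoter sequences are RefSeq's.

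Members and lists were chosen with earlier results of these data known. Besides members, the text names ligands, receptors, kinases and STATs, the 3 called genes of each other pathway list with the largest differences in TTF-ieSC against TTF, and the 10 genes most like the members' mean. Alternatives were other filters, scalings and variance models, the mean of features, a minimum difference, array weights, the compared groups alone and each array left out. Testing each feature by itself was added after seeing the data.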

Additional observations from a re-analysis of the deposited data

Results flagged for a closer look

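The inductions differed from each other in most members, by a test of the difference itself in the limma fit: 44 of 51 were lower, that is, more negative from TTF than from MEF, and 3 were higher. The single genes listed here had a difference between the inductions of 3 or more, or were called in opposite directions. The differences were -10.13 for Ifi202b, -4.43 for Oas2, -4.38 for Ifi204, -4.08 for Oas1a, -3.24 for Zbp1, -3.00 for Ifit3, -2.94 for Psmb9 and -2.67 for Parp14, and 4.54 for Trim12a. Psmb9 and Parp14 fell from TTF and rose from MEF. Each difference rests on a single MEF-ieSC array, and the groups with 2 arrays were too small for a check on outlying arrays.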

How the results depend on the processing

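Over 22 other settings, every count and median of the members that is not given here was within 1.5 times, or within 0.07, of the value in the report. With no filter the median of immature Sertoli cells against gonad was 1.62. With the filter at the 75th percentile the medians were -2.68 (TTF-ieSC against TTF), -1.07 (MEF-ieSC against MEF), 1.62 (TTF against MEF), -1.72 (difference between inductions, with 1 called higher), 1.94 (immature Sertoli cells against gonad) and -1.55 (TTF-ieSC against immature Sertoli cells). With the mean of a gene's features they were -2.49, -1.05, 1.33 (with 3 lower) and 1.56 (immature against gonad, with 2 lower), 5 members were higher in TTF-ieSC than in immature Sertoli cells, and the median against the gonad turned to -0.025. With a minimum log2 difference of 1, 1 rose in TTF-ieSC and 2 in MEF-ieSC, 1 was lower in TTF-ieSC than in MEF-ieSC, 1 was lower in immature cells than in the gonad, 3 were lower and 6 higher in mature cells, and 3 and 12 were higher in TTF-ieSC than in immature cells and the gonad. With the compared groups alone, 0 were lower and 0 higher in TTF-ieSC against MEF-ieSC, with 22 at an unadjusted p under 0.05 in limma.

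Single genes turned direction where features were averaged or taken by themselves; the cause was not tested. Averaged, they were Irf1 0.18, Cmpk2 0.25 and Trim12a 0.155 from TTF, Oas1b -0.14 and Trim25 -3.43 from MEF, Irf1 -0.26, Cmpk2 -0.40 and Herc6 -0.54 in TTF against MEF, and Irf1 0.23 and Herc6 0.41 in the difference between inductions. They were Oas1b 0.013 and Xaf1 1.32 in immature cells against gonad, Herc6 -0.15 in mature cells, Oas1b -0.063, Dtx3l 0.030, Iigp1 -0.46 and Xaf1 -0.43 in TTF-ieSC against immature cells, and Iigp1 -0.34 against the gonad. By the other feature, they were Cmpk2 0.85 and Trim12a 1.20 from TTF, Oas1b -0.73 and Trim25 -7.32 from MEF, Herc6 1.18 in the difference, Oas1b 0.67 and Xaf1 4.32 in immature cells against gonad, and Herc6 -0.71 and Xaf1 -0.58 in mature cells. They were Cmpk2 0.33, Dtx3l 0.19, Iigp1 -1.12, Oas1b -0.55 and Xaf1 -4.08 in TTF-ieSC against immature cells, Iigp1 -0.97 against the gonad, and Ifi204 0.59 in TTF-ieSC against MEF-ieSC.

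With each array left out in turn, 44 to 45 members fell and 2 to 3 rose from TTF (median -2.28 to -2.22), and 34 to 35 fell and 6 to 7 rose from MEF (-0.95 to -0.94). In TTF against MEF 41 to 45 were higher and 1 lower (1.39 to 1.44), and the difference between inductions gave 42 to 45 lower and 3 higher (-1.64 to -1.54). Immature cells against gonad gave 43 higher and 3 to 4 lower (1.57 to 1.70), and mature against immature cells 21 to 25 higher and 7 to 10 lower (0.17 to 0.26). TTF-ieSC gave 40 to 41 lower and 6 to 8 higher against immature cells (-1.39 to -1.29), 7 to 11 lower and 4 to 5 higher against MEF-ieSC (-0.12 to -0.10), and 23 to 24 lower and 21 to 23 higher against the gonad (-0.10 to 0.11), the lowest without TTF-ieSC replicate 2. The single MEF-ieSC array was left out only for comparisons that do not use it. No paired analysis was possible because the labels give no shared replicate numbers; the numbers used here follow accession order and only name the arrays.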

Other observations

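Of 6775 tested genes outside the members and lists whose group means span at least 2 log2 units, the 10 most like the mean of the members over the 13 arrays had Pearson's r from 0.965 to 0.990, given as a description over arrays that share their groups. They were Il34, a growth factor of macrophages, Avpr1a, a vasopressin receptor, Lmcd1, Lgals9, Ccl9, Adm (adrenomedullin), Plau (urokinase), Mfap5, Bicc1 and Il4ra, a chain of the interleukin 4 receptor. Mfap5, a microfibril protein, had the widest range, with group means of 18.19 in TTF, 13.71 in MEF, 6.76 in TTF-ieSC and 7.19 in MEF-ieSC. Adm had group means of 16.39, 13.59, 8.91 and 8.17 in the same order, and Il34 of 12.27, 9.70, 8.22 and 8.13.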
